A study of Mus musculus with 26 samples.

Results

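The integrins, the laminins and 4 further genes of the basement membrane were followed through mouse aorta. Members were the protein-coding genes whose symbols name an integrin alpha chain, an integrin beta chain or a laminin alpha, beta or gamma chain, together with Nid1, Nid2, Hspg2 and Agrn. They numbered 41 of the 54532 identifiers in the count files. The set held 18 integrin alpha genes, 8 integrin beta genes, 11 laminin genes, 2 nidogens and 2 proteoglycans.

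RNA was sequenced from aorta of male mice in 26 libraries. The 4 untreated groups had 4 libraries each and were ascending aorta of Fbn1 C1041G/+ mice, ascending aorta of wild-type (WT) littermates, descending aorta of C1041G/+ mice and descending aorta of WT littermates. The 2 treated groups had 5 libraries each, all of ascending aorta from C1041G/+ mice, given AGT-ASO or a control ASO. AGT-ASO is an antisense oligonucleotide against the RNA of angiotensinogen, the precursor of angiotensin II. Fbn1 encodes fibrillin-1 of the elastic fibre microfibrils, and C1041G/+ mice, which keep 1 normal allele, serve as a mouse model of Marfan syndrome. The labels give neither the ages of the mice nor how many mice gave each library, so p-values measure the spread between these libraries.

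A basement membrane is a thin matrix sheet that lies under endothelium and around each smooth muscle cell of the aortic wall. Laminins, each built of an alpha, a beta and a gamma chain, form one network in it and type IV collagen another, and nidogens and the proteoglycan perlecan bridge them. Integrins are receptors of one alpha and one beta chain that hold cells to laminin, collagen or fibronectin and connect these to the actin cytoskeleton, and some of them release active TGF-beta from its latent complex.

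The libraries held 17171652 to 28554356 counts, and smooth muscle markers had a similar mean score in all groups, 9.42 to 9.70 on the log2(CPM + 0.5) scale. CPM are counts scaled to a common library total. Fbn1 passed no test by genotype, and Agt was removed by the filter on low counts. Ascending and descending libraries with the same number were taken to come from the same mouse. Library 2 of the C1041G/+ ascending group held summed thymus marker levels of 85.04 CPM, with 2 of 7 markers at 0, and the other 3 libraries of that group held 5.36 to 12.8 CPM. These sums were 3.98 to 34.6 CPM in WT ascending, 4.385 to 27.1 CPM in C1041G/+ descending and 3.73 to 19.15 CPM in WT descending libraries. All 8 mesothelial markers were called higher in ascending aorta in both genotypes, as were 5 of 8 heart muscle markers in C1041G/+ mice and 6 of 8 in WT mice.

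Of the 41 members, 38 passed the count filter in both fits. Itgad, which encodes a leukocyte alpha chain, had 0 to 2 counts in each library. Itgb6, a beta chain of epithelia, had 0 to 10 counts, and Lama1, the laminin alpha chain of early embryonic basement membranes, had 0 to 11 counts. These 3 genes were not tested.

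Levels can be roughly compared between genes after division by exon length, given here as FPKM (CPM per kilobase of the exons of a gene). The length counts every annotated exon base of a gene, used in these aortas or not, so unused exons lower the FPKM. Itgb1, the partner of most integrin alpha chains, had the highest FPKM of the set in every group, with means of 702 in C1041G/+ ascending, 575 in WT ascending, 597 in C1041G/+ descending and 569 in WT descending aorta. In the treated ascending aortas its mean FPKM was 553 with AGT-ASO and 538 with control ASO. Among alpha chains Itga8 led, a receptor chain of mesenchymal and smooth muscle cells that binds RGD sequences. It took 48.6 ± 5.64% of the summed alpha chain FPKM in C1041G/+ ascending, 55.3 ± 2.20% in WT ascending, 52.6 ± 2.86% in C1041G/+ descending and 56.5 ± 1.94% in WT descending aorta (SD, n = 4 each). An opposite-strand gene with 4792 to 11038 counts per library overlaps 5.05% of the exon bases of Itga8, and without a stated strand setting reads from those bases cannot be told apart. Itga9 and Itga5 followed with group means of 61.1 to 116 and 65.8 to 125 FPKM. Of the beta chains, Itgb5, which pairs with Itgav, had 215 to 270 FPKM.

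The remaining integrin chains spanned a wide range of group mean FPKM. The laminin receptor chains Itga3 and Itga7 had 35.6 to 43.4 and 22.3 to 26.2 FPKM, Itgav had 16.5 to 21.2 FPKM and its partner Itgb3 15.9 to 30.5 FPKM. Collagen receptor chains were lower, with 7.72 to 10.4 FPKM for Itga1, 2.10 to 3.52 FPKM for Itga10, 1.64 to 2.28 FPKM for Itga11 and 0.194 to 0.493 FPKM for Itga2. Of the chains of blood cells, Itgb2 had 2.13 to 6.24 FPKM, its partners Itgam, of myeloid cells, 0.507 to 1.19 FPKM and Itgal, of lymphocytes, 0.159 to 0.914 FPKM, and the platelet chain Itga2b 0.6251 to 0.964 FPKM. Itgam shares most of its exon bases with another gene on the same strand, which had 0 to 1 counts per library. Itga10 also shares part of its exon bases with another gene on the same strand. How reads from shared bases were counted was not given, so the FPKM of Itgam, Itga10 and Itga1 may not be comparable with those of other chains. Itga2b was called in none of the comparisons, and nor was any of the platelet markers tested.

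Laminin transcripts of these aortas were mainly those of the alpha5, beta2 and gamma1 chains. Lama5, found in vascular basement membranes, made up 59.3 ± 5.38% of the alpha chain FPKM in C1041G/+ ascending and 48.6 ± 2.65% in WT ascending aorta, and 55.8 ± 6.19% and 51.1 ± 5.50% in C1041G/+ and WT descending aorta. Lama4, the alpha chain of endothelium and mesenchyme, gave group means of 28.5 to 34.3%, and Lama2, the chain of muscle, 8.08 to 16.9%. Lamb2 was 96.2 to 98.3% of the beta chain FPKM in group means, which left Lamb1 with 1.67 to 3.72%. The gamma chains divided differently between regions, as given with the regional comparison. Perlecan (Hspg2) had group means of 69.0 to 82.9 FPKM and agrin (Agrn) 13.8 to 16.1 FPKM, while Nid1 had 16.9 to 27.7 FPKM and Nid2 1.89 to 4.24 FPKM.

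**Figure D1:**
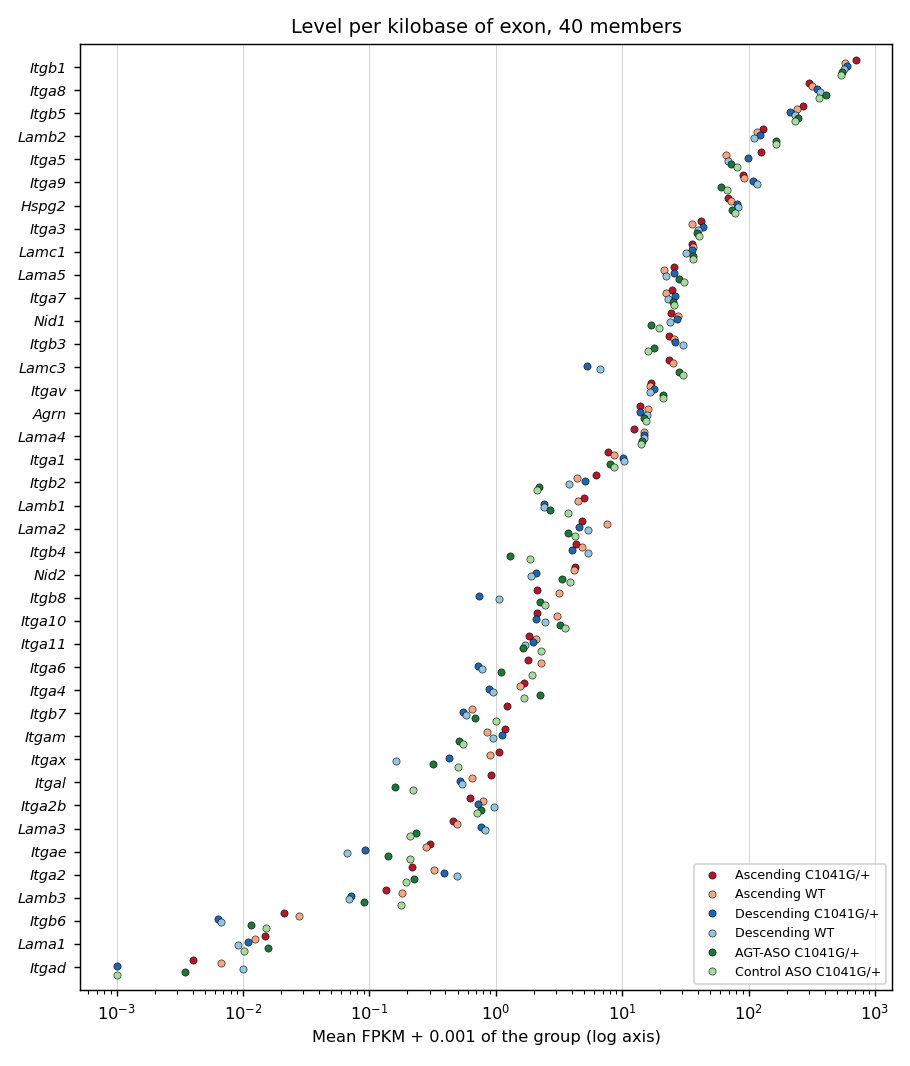
Mean FPKM (CPM per kilobase of exon, plus 0.001, log axis) of 40 members, 1 point per group; n = 4 libraries in untreated and 5 in treated groups. Itgb1 is the top gene in all 6 groups, Itgad, Itgb6 and Lama1 lie lowest, and the points of Lamc3 split by region.

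**Figure D2:**
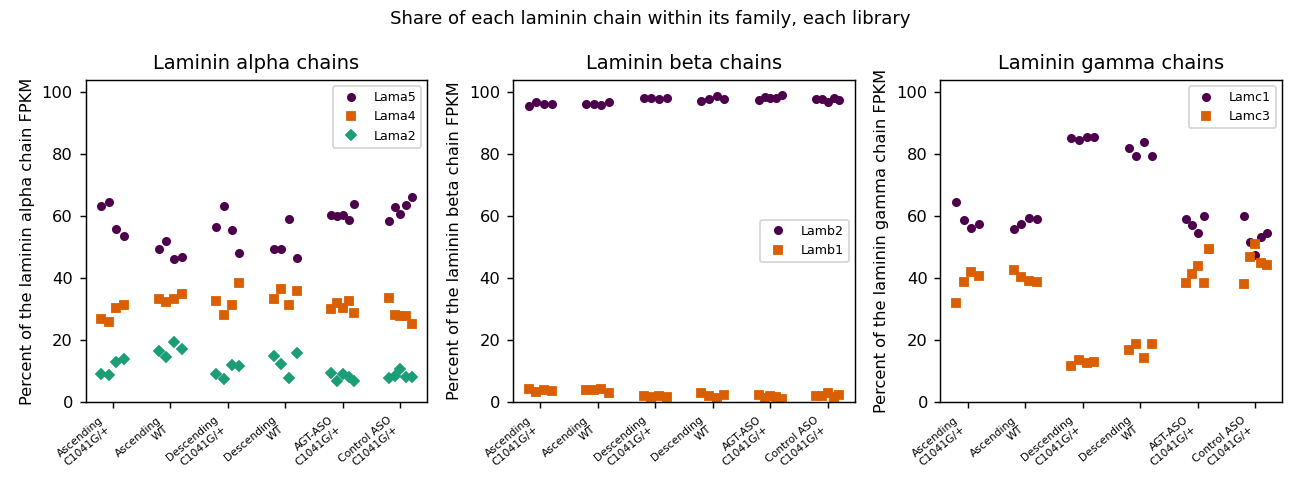
Percent of the summed FPKM of its laminin chain family taken by each main chain, 1 point per library. Lamb2 is at 95.5% or above everywhere, and the Lamc3 points of the descending libraries, at 11.7 to 18.9%, lie below those of all ascending libraries.

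By the main tests, 15 members were called in at least 1 comparison, meaning an adjusted p under 0.05 over all genes tested. The share of all genes called in at least 1 comparison was not counted. Shares of all genes are given below with each comparison. RefSeq promoter windows on GRCm38.p6 were at hand for 26 of the 41 members and for 9 of these 15. Shown are the 250 bases before the RefSeq start of the called members with a window whose call was by genotype, or by region in both genotypes. RefSeq starts need not be those of the annotation used for counting. Capitals mark matches, on either strand, to the SP1 motif GGGCGG, the AP-1 motif TGACTCA or TGAGTCA and the GATA motif AGATAA.
Itga5 (chr15:103366792-103367041, minus strand): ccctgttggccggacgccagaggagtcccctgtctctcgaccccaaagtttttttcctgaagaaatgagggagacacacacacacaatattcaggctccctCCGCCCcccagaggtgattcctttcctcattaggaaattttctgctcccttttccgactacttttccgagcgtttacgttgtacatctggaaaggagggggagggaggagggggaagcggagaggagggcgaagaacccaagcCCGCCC
Itgax (chr7:128129300-128129549, plus strand): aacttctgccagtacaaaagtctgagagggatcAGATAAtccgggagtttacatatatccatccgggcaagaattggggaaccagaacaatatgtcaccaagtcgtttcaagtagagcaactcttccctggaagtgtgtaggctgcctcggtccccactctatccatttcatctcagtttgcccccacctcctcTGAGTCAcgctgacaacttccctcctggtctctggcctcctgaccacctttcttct
Itga4 (chr2:79255176-79255425, plus strand): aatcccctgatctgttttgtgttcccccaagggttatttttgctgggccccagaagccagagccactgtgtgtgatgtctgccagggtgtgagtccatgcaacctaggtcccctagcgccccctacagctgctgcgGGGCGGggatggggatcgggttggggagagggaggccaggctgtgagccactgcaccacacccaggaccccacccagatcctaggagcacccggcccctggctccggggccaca
Itgb8 (chr12:119238277-119238526, minus strand): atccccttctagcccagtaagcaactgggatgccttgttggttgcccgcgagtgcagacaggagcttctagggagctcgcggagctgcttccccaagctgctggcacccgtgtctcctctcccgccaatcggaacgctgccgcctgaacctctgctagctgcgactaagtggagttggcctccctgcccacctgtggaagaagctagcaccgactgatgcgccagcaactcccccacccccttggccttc
Lamb1 (chr12:31265043-31265292, plus strand): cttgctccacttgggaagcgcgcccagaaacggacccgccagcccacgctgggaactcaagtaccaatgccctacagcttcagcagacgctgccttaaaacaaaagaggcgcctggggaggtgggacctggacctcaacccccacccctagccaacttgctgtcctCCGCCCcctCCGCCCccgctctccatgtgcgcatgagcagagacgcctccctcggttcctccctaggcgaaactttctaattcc
Itga5 held 2 SP1 matches, which start 149 and 6 bases before the gene, and Lamb1 held 2, at 84 and 75 bases. Itga4 held 1 SP1 match at 114 bases, and Itgax held 1 AP-1 match at 56 and 1 GATA match at 217 bases. Itgb8 had no match to these motifs, to the E-box CACGTG or to the CArG box of serum response factor. Over all 32851 windows of the same length, 32.74% held an SP1 match, 4.46% AP-1, 9.99% GATA, 6.02% the E-box and 1.47% a CArG box, so a match describes the letters only.

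The first comparison asked which members differ between C1041G/+ and WT ascending aorta. Itga5, the alpha chain of the fibronectin receptor, was the 1 member called higher, and 0 were called lower by edgeR. Over all 15645 genes tested, 1.18% were called higher and 1% lower. At an unadjusted p under 0.05, 5 members were higher and 6 lower, beside 7.8% and 8.42% of all genes. DESeq2 called 2 higher and 1 lower, beside 2.56% and 2.14% of all genes. The median log2 fold change of the 38 tested members was -0.03, beside -0.01 over all genes.

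Itga5 (chromosome 15, 103344286 to 103366763, minus strand, GRCm38) had 802, 722, 460 and 475 CPM in C1041G/+ ascending libraries 2, 4, 6 and 8. The WT ascending libraries 1, 3, 5 and 7 had 386, 333, 269 and 311 CPM. All 4 mutant values lay above all 4 WT values, with libraries 2 and 4 well above libraries 6 and 8. The level was 1.89-fold higher, a log2 fold change of 0.92 ± 0.20 (SE, adjusted p = 0.0249). The call was lost without mutant library 2 (log2 0.76, adjusted p = 0.098) or 4 (0.84, 0.0803) and without WT library 3 (0.93, 0.067), 5 (0.84, 0.0893) or 7 (0.90, 0.0719). It was also lost without a count filter (adjusted p = 0.0897). As a share of alpha chain FPKM, Itga5 was 20.3 ± 6.37% in C1041G/+ and 11.7 ± 2.14% in WT ascending aorta (SD, n = 4 each).

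In descending aorta the same libraries of C1041G/+ mice were high in Itga5, with 598 CPM in library 2 and 618 CPM in library 4, against 377 CPM in library 6 and 369 CPM in library 8. WT descending libraries had 342, 365, 366 and 291 CPM. The groups did not overlap, but libraries 6 and 8 were only just above the highest WT library and the log2 fold change of 0.52 ± 0.20 was not called (adjusted p = 0.314). In the ascending group, smooth muscle markers summed to 20240 to 26200 CPM in C1041G/+ and 16160 to 22800 CPM in WT libraries, with 1 of 8 called higher and none at 0, and their part in the Itga5 result was not tested.

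Itgb1, the beta chain that joins Itga5, had 2929, 3023, 2761 and 2748 CPM in C1041G/+ ascending libraries 2, 4, 6 and 8, and 2541, 1981, 2420 and 2444 CPM in WT libraries 1, 3, 5 and 7. Those groups did not overlap either. The log2 fold change of 0.29 ± 0.09 missed the threshold in edgeR (adjusted p = 0.104) and passed it in DESeq2 (log2 0.29, adjusted p = 0.025). Lama2, whose protein forms the laminin of muscle basement membranes, ran the other way, with 56.7, 62.2, 92.4 and 106 CPM in C1041G/+ against 123, 95.5, 145 and 131 CPM in WT ascending libraries. Mutant libraries 2 and 4, the highest in Itga5, were the lowest in Lama2, and mutant library 8 overlapped WT library 3. Its log2 fold change was -0.64 ± 0.22 (adjusted p = 0.15), and DESeq2 called it lower (adjusted p = 0.0497). In descending aorta Lama2 had 64.0, 55.7, 90.1 and 87.5 CPM in C1041G/+ libraries 2, 4, 6 and 8, and 97.1, 87.1, 63.5 and 105 CPM in WT libraries 1, 3, 5 and 7, so libraries 2 and 4 were again lowest of the mutant group while the groups overlapped. Fibroblast markers, 1 of 8 called lower and none higher or at 0, summed to 4538 to 5412 CPM in C1041G/+ and 5584 to 7618 CPM in WT ascending libraries without overlap, with a median log2 fold change of -0.35. Their part in the Lama2 values was not tested.

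**Figure D3:**
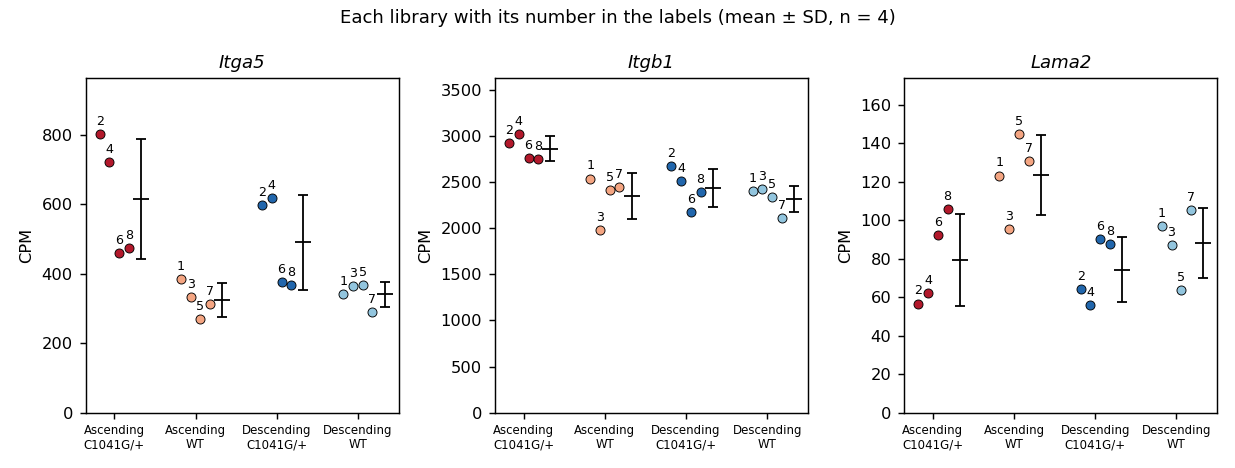
CPM of Itga5, Itgb1 and Lama2 in each untreated library, labelled with its number, with the mean and SD (n = 4) beside each group. C1041G/+ libraries 2 and 4 are the highest of their groups in Itga5 and Itgb1 and the lowest in Lama2 in both regions.

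Collagen-binding alpha chains had a median log2 fold change of -0.35 in ascending aorta, with 0 of 4 called. Itga10, a chain of cartilage and fibrous tissue, averaged 11.0 ± 1.87 CPM in C1041G/+ and 15.7 ± 2.87 CPM in WT ascending aorta (SD, n = 4 each; log2 -0.52, adjusted p = 0.141). Cartilage markers, 1 of 7 tested called higher and 1 lower and none at 0, had a median log2 fold change of -1.25 there and summed to 164 to 215.0 CPM in C1041G/+ and 139.9 to 378 CPM in WT libraries. The part of these and of the fibroblast markers in the Itga10 values was not tested. The leukocyte chain Itgb2, the common beta subunit of the white cell integrins, had 24.9, 14.7, 20.5 and 16.02 CPM in C1041G/+ and 13.8, 13.9, 11.8 and 14.5 CPM in WT ascending libraries. Its groups did not overlap, but the nearest libraries were at 14.7 CPM in C1041G/+ and 14.5 CPM in WT (log2 0.50, adjusted p = 0.214). Macrophage markers, 0 of 8 called, summed to 838 to 1151 CPM in C1041G/+ and 667 to 770 CPM in WT ascending libraries with none at 0, and their part in the Itgb2 values was not tested. Since these are bulk libraries, fewer cells of a type and less RNA per cell cannot be told apart.

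In descending aorta, genotype called 1 member higher, Itgax, and 0 lower by edgeR, beside 0.678% of all genes called higher and 0.531% lower. DESeq2 also called 1 higher and 0 lower, beside 1.57% and 0.996% of all genes. At an unadjusted p under 0.05 there were 3 higher and 2 lower, beside 5.81% and 5% of all genes. The median log2 fold change of the tested members was -0.02.

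Itgax (chromosome 7, 128129547 to 128150657, plus strand, GRCm38) encodes CD11c, an alpha chain of dendritic cells and some macrophages. It had 2.14, 2.21, 2.24 and 1.61 CPM in C1041G/+ descending libraries 2, 4, 6 and 8, which were 38, 39, 42 and 33 counts. The WT descending libraries 1, 3, 5 and 7 had 0.925, 0.966, 0.816 and 0.422 CPM, which were 17, 19, 14 and 8 counts. Every mutant library lay above every WT library. The level was 2.603-fold higher (log2 1.38 ± 0.26, adjusted p = 0.00857). The replicate block for libraries of the same number gave a log2 fold change of 1.41 with an adjusted p of 0.0569, and a fit of the 2 descending groups alone gave 0.0587. Macrophage markers summed to 877 to 1056 CPM in C1041G/+ and 423 to 964 CPM in WT descending libraries, with 0 of 8 called and none at 0, and their part in the Itgax result was not tested. The other leukocyte integrin genes tested, Itgal, Itgam, Itgae, Itgb2 and Itgb7, were not called by genotype in either region.

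Region, ascending over descending, moved more members than genotype did. In C1041G/+ mice 11 members were called higher and 3 lower in ascending aorta, beside 6.41% and 3.51% of all genes. In WT mice 9 were called higher and 1 lower, beside 7.82% and 3.31% of all genes. The 9 that were higher in WT mice were also among the 11 of C1041G/+ mice. They included Lamc3, Lamb1, Nid2, Itga4, Itga6, Itgae, Itgax and Itgb8. The median log2 fold change of the tested members was 0.07 in C1041G/+ and 0.06 in WT mice, beside -0.01 over all genes in each.

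Lamc3, which encodes the gamma3 chain found in place of gamma1 in some laminins, differed most among the laminins. This gene (chromosome 2, 31887291 to 31946539, plus strand, GRCm38) had 99.7, 132, 166 and 171 CPM in C1041G/+ ascending libraries 2, 4, 6 and 8, against 28.7, 31.1, 32.7 and 37.0 CPM in the descending libraries of the same numbers. The WT libraries held 173, 119, 162 and 159 CPM in ascending libraries 1, 3, 5 and 7, against 41.5, 44.2, 34.6 and 43.9 CPM in descending ones. All 8 ascending libraries were above all 8 descending libraries. The level was 4.38-fold higher in C1041G/+ (log2 2.13 ± 0.16, adjusted p = 6.9e-08) and 3.73-fold higher in WT ascending aorta (log2 1.90 ± 0.16, adjusted p = 2e-07). Of the 6091 exon bases of Lamc3, 382 overlap Gm13441 on the other strand, whose counts are not given here.

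Lamc1, the common gamma chain, was not called by region in either genotype, with means of 293 ± 27.5 CPM in C1041G/+ ascending and 296 ± 30.6 CPM in C1041G/+ descending aorta (SD, n = 4 each). In WT mice it averaged 300.4 ± 48.4 CPM in ascending and 265 ± 13.3 CPM in descending aorta (log2 0.18 ± 0.11, adjusted p = 0.385). Without WT ascending library 3 it was called higher (log2 0.29, adjusted p = 0.0427), as it was without that library and C1041G/+ ascending library 8 (log2 0.29, adjusted p = 0.0323). Lamc3 was 38.3 ± 4.35% of gamma chain FPKM in C1041G/+ ascending and 12.7 ± 0.780% in C1041G/+ descending aorta, and 40.2 ± 1.73% in WT ascending and 17.1 ± 2.12% in WT descending aorta (SD, n = 4 each). In the treated ascending aortas the share was 42.2 ± 4.61% with AGT-ASO and 45.0 ± 4.67% with control ASO (SD, n = 5 each).

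Lama3, an alpha chain of epithelial laminins, was lower in ascending aorta. It had 3.93, 5.66, 4.42 and 5.66 CPM in C1041G/+ ascending and 8.71, 7.65, 7.31 and 9.16 CPM in C1041G/+ descending libraries, with no overlap (log2 -0.74 ± 0.19, adjusted p = 0.0145). The WT groups overlapped, with 4.54, 4.28, 5.15 and 7.19 CPM in ascending and 10.2, 8.13, 10.1 and 6.70 CPM in descending libraries (log2 -0.73 ± 0.19, adjusted p = 0.0136). The call in C1041G/+ mice was lost without ascending library 2 or descending library 8, with adjusted p of up to 0.126 over the alternatives. The call in WT mice was lost without descending library 1, and also without the ascending library of each genotype richest in heart muscle markers (WT library 3 and C1041G/+ library 8), with adjusted p of up to 0.0515 over the alternatives. Lamb3, a beta chain of epithelial laminins, had 0.0562 to 1.63 CPM in untreated libraries and was not called.

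Lamb1 (chromosome 12, 31265234 to 31329644, plus strand, GRCm38), a beta chain widely used in development, had 49.97, 40.96, 52.5 and 54.9 CPM in C1041G/+ ascending and 23.8, 19.95, 27.9 and 23.2 CPM in C1041G/+ descending libraries (log2 1.06 ± 0.17, adjusted p = 4.79e-04). In WT mice it had 48.2, 36.4, 51.8 and 39.8 CPM in ascending and 31.6, 22.1, 15.7 and 26.7 CPM in descending libraries (log2 0.87 ± 0.17, adjusted p = 0.00226). The regions did not overlap in either genotype. Lamb2, the main beta chain, was not called, with log2 fold changes within 0.1 of 0 in both genotypes.

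Of the nidogens, which link laminin to collagen IV, Nid2 differed by region and Nid1 did not. Nid2 (chromosome 14, 19751265 to 19811787, plus strand, GRCm38) had 20.4, 19.2, 24.0 and 24.2 CPM in C1041G/+ ascending and 8.94, 10.7, 14.4 and 9.16 CPM in C1041G/+ descending libraries (log2 1.02 ± 0.14, adjusted p = 5.14e-05). WT ascending libraries had 20.9, 18.6, 22.8 and 23.4 CPM and WT descending ones 8.98, 10.1, 9.61 and 10.5 CPM (log2 1.13 ± 0.14, adjusted p = 1.5e-05). In both genotypes the ascending libraries were the higher ones, without overlap. Of the 5174 exon bases of Nid2, 437 overlap Rtraf on the other strand, whose counts are not given here. Nid1 averaged 169.0 ± 9.84 CPM in C1041G/+ ascending and 188 ± 22.8 CPM in C1041G/+ descending aorta, and 192 ± 31.5 CPM in WT ascending and 166.5 ± 33.8 CPM in WT descending aorta (SD, n = 4 each). Neither proteoglycan was called.

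**Figure D4:**
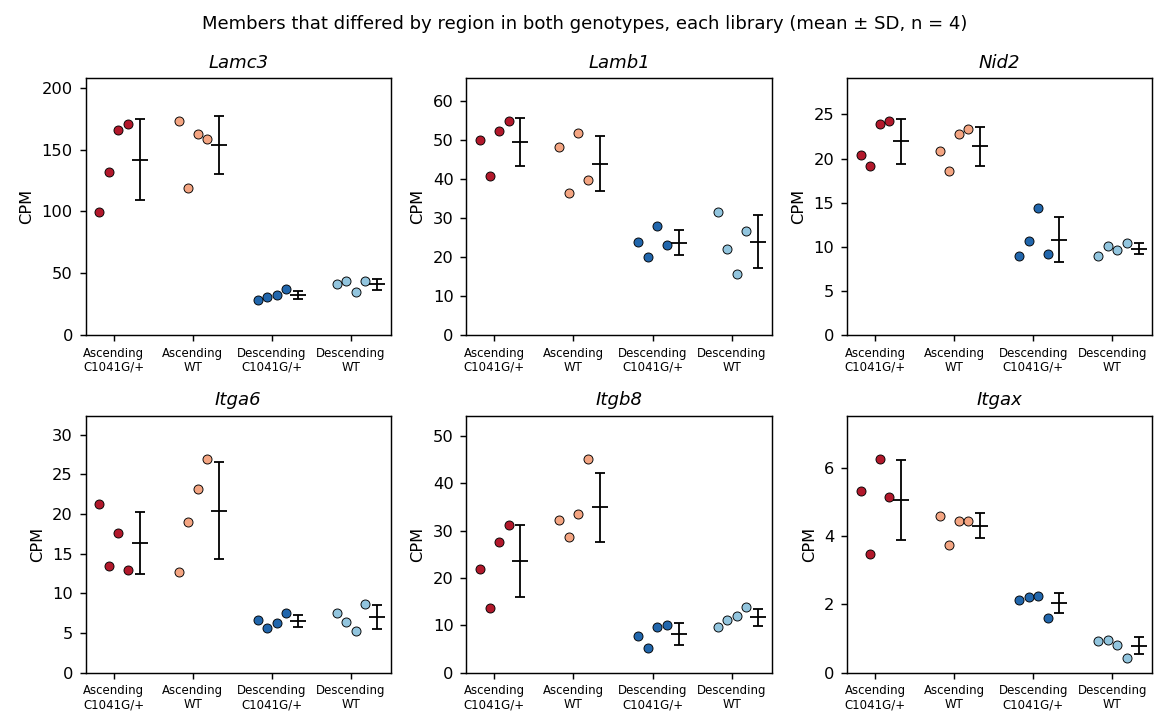
CPM of 6 members in each untreated library, with the mean and SD (n = 4) beside each group. In all 6 panels every ascending library lies above every descending library of its own genotype, and in Itgax the 4 C1041G/+ descending libraries, at 1.61 to 2.24 CPM, also lie above the 4 WT descending libraries.

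Among the integrin alpha chains, Itga6, whose product binds laminin in epithelia and endothelium, had 21.3, 13.4, 17.6 and 12.97 CPM in C1041G/+ ascending and 6.69, 5.67, 6.25 and 7.50 CPM in C1041G/+ descending libraries (log2 1.32 ± 0.22, adjusted p = 4.73e-04). Its WT values were 12.6, 18.95, 23.1 and 27.0 CPM in ascending and 7.56, 6.41, 5.30 and 8.70 CPM in descending libraries (log2 1.54 ± 0.22, adjusted p = 7.91e-05). Again no library of one region fell among those of the other. The more abundant laminin-binding chains, Itga3 and Itga7, the second of them a receptor chain of muscle, were not called by region, and nor was Itgb4, the beta chain that pairs with Itga6 in hemidesmosomes.

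Itga4, a receptor chain for fibronectin and VCAM1, had 20.4, 17.7, 25.4 and 30.0 CPM in C1041G/+ ascending and 13.2, 10.9, 12.8 and 12.7 CPM in C1041G/+ descending libraries (log2 0.92 ± 0.15, adjusted p = 4.74e-04). In WT mice it had 21.8, 16.5, 25.95 and 22.7 CPM in ascending and 13.7, 12.2, 14.5 and 12.8 CPM in descending libraries (log2 0.71 ± 0.15, adjusted p = 0.00381). The regions did not overlap in either genotype. The gene (chromosome 2, 79255426 to 79333123, plus strand, GRCm38) shares 8.04% of its exon bases with Cerkl on the other strand, which had 20 to 78 counts per library.

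Itgb8 (chromosome 12, 119158022 to 119238802, minus strand, GRCm38) pairs with Itgav in a receptor that activates latent TGF-beta. It had 21.9, 13.7, 27.7 and 31.2 CPM in C1041G/+ ascending and 7.65, 5.10, 9.66 and 10.1 CPM in C1041G/+ descending libraries (log2 1.54 ± 0.25, adjusted p = 4.13e-04). WT mice had 32.3, 28.7, 33.5 and 45.3 CPM in ascending and 9.74, 11.1, 11.9 and 13.9 CPM in descending libraries (log2 1.58 ± 0.24, adjusted p = 2.06e-04). Within each genotype the regions stood apart, and C1041G/+ library 4 was the lowest of its group in each region. Itgav itself was not called by region, with 158 to 207 CPM in C1041G/+ ascending and 176 to 209 CPM in C1041G/+ descending libraries.

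Itgax, already described by genotype, had 5.34, 3.48, 6.28 and 5.16 CPM in C1041G/+ ascending libraries, 2.47-fold above the descending ones (log2 1.31 ± 0.23, adjusted p = 6.61e-04). In WT ascending libraries it had 4.59, 3.75, 4.43 and 4.46 CPM, 5.47-fold above the descending ones (log2 2.45 ± 0.25, adjusted p = 1.68e-06). The WT descending libraries were thus the lowest of the 4 groups. Itgae, which pairs with Itgb7 and binds E-cadherin, had 2.18, 1.14, 1.09 and 1.10 CPM in C1041G/+ ascending and 0.562, 0.340, 0.374 and 0.390 CPM in C1041G/+ descending libraries (log2 1.72 ± 0.48, adjusted p = 0.0274). In WT mice it had 0.907, 1.15, 0.765 and 2.30 CPM in ascending and 0.163, 0.712, 0.117 and 0.211 CPM in descending libraries (log2 2.05 ± 0.50, adjusted p = 0.0104). These are 15 to 51 counts in ascending and 2 to 14 counts in descending libraries. Its call was lost in C1041G/+ mice without ascending library 2 or descending library 4, 6 or 8 (adjusted p over the alternatives up to 0.13) and in WT mice without ascending library 7 (up to 0.0557).

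A further 4 members were called by region in C1041G/+ mice, with no call in WT mice. Itgb5, a partner of Itgav in the vitronectin receptor, had 975, 991, 924 and 941 CPM in ascending and 803, 795, 658 and 795 CPM in descending C1041G/+ libraries, without overlap (log2 0.33 ± 0.09, adjusted p = 0.0218). Itgb7, a lymphocyte beta chain, had 3.97, 2.12, 4.58 and 2.90 CPM in ascending and 1.80, 1.42, 2.08 and 0.780 CPM in descending C1041G/+ libraries, a narrow separation (log2 1.16 ± 0.35, adjusted p = 0.0415). The collagen receptor chains Itga1 and Itga2 were lower in ascending C1041G/+ aorta. Itga1 had 103, 146, 165 and 161 CPM in ascending and 171, 192, 201 and 197 CPM in descending C1041G/+ libraries (log2 -0.41 ± 0.12, adjusted p = 0.0316). Itga2 had 1.54, 1.14, 1.80 and 1.70 CPM in ascending and 2.64, 2.27, 3.31 and 2.92 CPM in descending C1041G/+ libraries (log2 -0.85 ± 0.25, adjusted p = 0.0364). The regions did not overlap for either gene in C1041G/+ mice. In WT mice the log2 fold changes were 0.06 for Itgb5, 0.16 for Itgb7, -0.27 for Itga1 and -0.62 for Itga2.

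Each of these 4 calls was lost when any 1 of several libraries was left out, while the direction stayed. Over the alternatives the log2 fold changes ran from 0.26 to 0.36 for Itgb5, 0.95 to 1.36 for Itgb7, -0.48 to -0.27 for Itga1 and -0.93 to -0.73 for Itga2. Itgb5 lost its call without C1041G/+ ascending library 2 or 4 or descending library 6, with adjusted p over the alternatives of up to 0.0833. Itgb7 lost it without ascending library 2, 6 or 8 or descending library 2, 4 or 8 (up to 0.135). Itga1 lost it without ascending library 2 or 4 or descending library 4, 6 or 8 (up to 0.0997), and Itga2 without ascending library 2, 4 or 8 or descending library 2, 6 or 8 (up to 0.117). The count of members called in C1041G/+ mice was 8 without ascending library 2 and 9 without descending library 8, in place of 14. Calls over all genes fell as well, to 1247 and 1277 in place of 1552. Itga4, Itga6, Itgax, Itgb8, Lamb1, Lamc3 and Nid2 were called by region in both genotypes in each alternative run. With the replicate block as a fixed term, 13 members were called higher and 4 lower in C1041G/+ mice, beside 9.05% and 5.78% of all genes, adding Itga5 (log2 0.33, adjusted p = 0.0226) and Itgal (0.79, 0.0102) as higher and Lama4 (-0.27, 0.0361) as lower. In WT mice it called 9 higher and 4 lower, beside 10% and 5.48% of all genes, adding Itga1 (-0.27, 0.0428), Itga9 (-0.33, 0.019) and Itgb3 (-0.25, 0.0438) as lower.

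**Figure D5:**
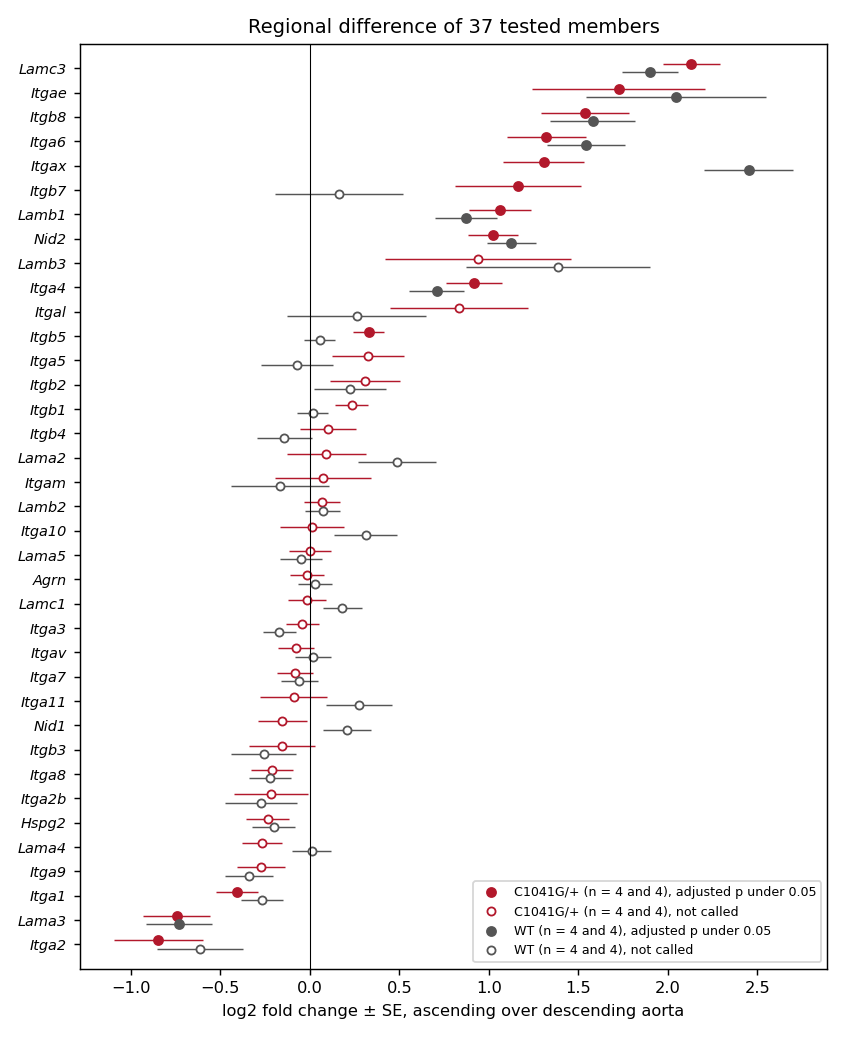
log2 fold change of ascending over descending aorta with its SE for 37 tested members, in C1041G/+ mice (red) and WT mice (grey), filled where the adjusted p was under 0.05 (n = 4 libraries per group). The genes run from Lamc3 at the top to Itga2 at the bottom, and the points of Itgax are set furthest apart between genotypes.

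Markers of other tissues differed between the regions beside these genes. Mesothelial markers, 8 of 8 higher in both genotypes and none at 0 in any library, summed to 413 to 639 CPM in C1041G/+ ascending and 16.2 to 31.8 CPM in C1041G/+ descending libraries, and to 352 to 496 CPM in WT ascending and 8.74 to 18.8 CPM in WT descending libraries. Heart muscle markers summed to 296 to 641 CPM in C1041G/+ ascending and 126 to 245 CPM in C1041G/+ descending libraries, and to 274 to 1095 CPM in WT ascending and 72.7 to 145 CPM in WT descending libraries, with up to 1 of 8 at 0 in a library. Of the 5 epithelial markers tested, 4 were higher in C1041G/+ and 3 in WT ascending aorta. Endothelial markers summed to 1427 to 2207 CPM in C1041G/+ ascending and 2194 to 2521 CPM in C1041G/+ descending libraries, with 2 of 10 called higher and 1 lower, and to 1597 to 2092 CPM in WT ascending and 2541 to 3412 CPM in WT descending libraries, with 2 higher and 5 lower. None of the 10 was at 0 in any library. Their mean log2(CPM + 0.5) score ran the other way from the sums. It was 6.76 in C1041G/+ ascending and 6.6 in C1041G/+ descending aorta, and 6.84 and 6.71 in WT aorta. Their median log2 fold change was -0.29 in C1041G/+ and -0.42 in WT mice. Of the 7 Schwann cell markers, 1 was higher in C1041G/+ and 5 in WT ascending aorta, and of the 7 tested cartilage markers 3 and 4. Fibroblast markers had 1 of 8 higher and 1 lower in C1041G/+ ascending aorta (median log2 0.07), and 4 higher and 0 lower in WT ascending aorta (median log2 0.45). They summed to 4538 to 5412 CPM in C1041G/+ ascending and 4486 to 5996 CPM in C1041G/+ descending libraries, and to 5584 to 7618 CPM in WT ascending and 3615 to 6994 CPM in WT descending libraries. Adipocyte markers had 2 of 8 lower in C1041G/+ (median log2 -1.08) and 1 in WT ascending aorta (median log2 -0.76). Macrophage markers had 0 of 8 called by region in either genotype. The 10 T and B lymphocyte markers had 0 called in C1041G/+ mice (median log2 1.29) and 1 lower in WT mice (median log2 0.26). Their sum was 74.6 CPM in C1041G/+ ascending library 2 and 5.46 to 15.8 CPM in the other libraries of that group, against 4.34 to 25.9 CPM in C1041G/+ descending libraries. The regional calls of Itgae and Itgb7 in C1041G/+ mice were lost without ascending library 2. As given above, each was also lost without any 1 of several other libraries. The part of these tissues in the regional results was not tested.

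Whether the effect of genotype differed between regions was tested as an interaction, in which 0 members were called in either direction by edgeR, beside 0.00639% of all genes called higher and 0% called lower. At an unadjusted p under 0.05 there were 2 members, beside 5.08% of all genes, and DESeq2 called 0, beside 0.181%. With the replicate block as a fixed term 0 members were called, where 13 genes were called in all. The smallest p was that of Itgax, with a difference of -1.15 ± 0.335 between the ascending and descending log2 fold changes of genotype (unadjusted p = 0.00318 from edgeR, adjusted p = 0.568). Itgb5 had the next smallest, 0.27 ± 0.125 (adjusted p = 0.945). The calls of Itga5 in ascending aorta and of Itgax in descending aorta were therefore not shown to be limited to 1 region, and nor were the 4 regional calls of C1041G/+ mice shown to differ from WT.

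In C1041G/+ mice given AGT-ASO, 0 members were called higher or lower against control ASO by edgeR, beside 0.0134% of all 14981 genes called higher and 0.0534% called lower. At an unadjusted p under 0.05 there were 7, of which 1 was higher and 6 lower, beside 5.92% of all genes higher and 6.8% lower. DESeq2 called 1 higher, Itga4, and 0 lower, beside 0.733% and 1.07% of all genes. Without a count filter edgeR called the same 1, beside 0.258% of all genes higher and 0.261% lower. The median log2 fold change of the tested members was -0.10, beside -0.01 over all genes.

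Itga4 had 34.6, 32.7, 27.4, 32.6 and 29.0 CPM in AGT-ASO libraries 14, 15, 18, 19 and 20. Control ASO libraries 8, 12, 13, 16 and 17 had 25.6, 27.7, 19.6, 19.95 and 23.8 CPM. The groups overlapped in 1 place, AGT-ASO library 18 and control library 12, which differed by under 1 CPM. The log2 fold change was 0.42 ± 0.11 (adjusted p = 0.133), with DESeq2 at 0.43 (adjusted p = 0.0302) and edgeR without a count filter at 0.43 (adjusted p = 0.0146). Its promoter is among those shown above.

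Itga11, a collagen receptor chain of fibroblasts, had 9.42, 8.80, 7.21, 8.995 and 7.65 CPM with AGT-ASO and 10.5, 10.8, 13.7, 10.4 and 13.2 CPM with control ASO, without overlap (log2 -0.47 ± 0.13, adjusted p = 0.174). Lamb1 had 28.7, 21.8, 29.8, 32.5 and 19.5 CPM with AGT-ASO and 39.1, 36.6, 44.1, 25.3 and 40.5 CPM with control ASO, where control library 16 lay among the AGT-ASO libraries (log2 -0.48 ± 0.16, adjusted p = 0.262). Both values are descriptions of uncalled genes. Itga6 had 12.1, 14.1, 8.63, 10.7 and 3.77 CPM with AGT-ASO and 11.0, 16.9, 22.0, 22.8 and 14.5 CPM with control ASO (log2 -0.82 ± 0.32, adjusted p = 0.331), and AGT-ASO library 20 was the lowest of all. Endothelial markers summed to 230 CPM in that library, the lower end of an AGT-ASO range of 230 to 475 CPM, against 353 to 467 CPM with control ASO. Heart muscle markers summed to 310 to 668 CPM with AGT-ASO and 672 to 1392 CPM with control ASO, with 0 of 7 tested called, up to 1 at 0 in a library and no overlap of the sums. Their part in these values was not tested.

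Itga5, called by genotype, had 332, 311, 314, 371 and 473 CPM with AGT-ASO and 534, 440, 353, 400 and 288 CPM with control ASO, and the groups overlapped. Lamc3 had 120, 162, 157, 165 and 251 CPM with AGT-ASO and 172, 209, 205, 167 and 171 CPM with control ASO, all in the range of untreated ascending libraries or above it. Itgb4 and the leukocyte chain Itgb2 were lower in all 10 treated libraries than in the untreated ascending ones. Itgb4 had 4.05 to 15.5 CPM with AGT-ASO and 11.0 to 15.9 CPM with control ASO, and 20.03 to 38.8 CPM in untreated C1041G/+ ascending libraries. Itgb2 had 4.05 to 9.48 CPM with AGT-ASO and 4.34 to 8.74 CPM with control ASO, and 14.7 to 24.9 CPM in untreated C1041G/+ ascending libraries. Endothelial and macrophage marker sums were also lower there, at 230 to 475 CPM and 236 to 575 CPM in the treated libraries against 1427 to 2207 CPM and 838 to 1151 CPM in the untreated C1041G/+ ascending ones. The 2 experiments were fitted apart and no test was made between them, so treatment and experiment cannot be told apart here.

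Genes that act with the members were counted from lists of related genes. These lists were chosen with earlier results of these data known, so their counts are not independent of those results. Over all genes tested, genotype called 1.18% higher and 1% lower among ascending libraries, and 0.678% and 0.531% among descending ones. Of 20 tested integrin ligands outside the basement membrane, 6 were called higher and 0 lower by genotype in ascending aorta, among them Mfge8 (log2 0.83, adjusted p = 2.01e-04), which carries an RGD sequence, and tenascin-C (Tnc, log2 1.42, 2.28e-04). Fibronectin (Fn1), the ligand of the Itga5 receptor, averaged 1995 ± 48.2 CPM in C1041G/+ and 1054 ± 158 CPM in WT ascending aorta (SD, n = 4 each; log2 0.92, adjusted p = 5.16e-04). It averaged 2698 ± 290 CPM in C1041G/+ and 1787 ± 301 CPM in WT descending aorta (log2 0.59, adjusted p = 0.0194), the 1 of 20 ligands called higher there, with 0 lower. Lrrc32, which holds latent TGF-beta at the cell surface, was also higher in C1041G/+ ascending aorta (log2 0.93, adjusted p = 5.16e-04). The median log2 fold change of the ligands was 0.16 in ascending and 0.13 in descending aorta.

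Basement membrane collagens had 1 of 8 called higher by genotype in ascending aorta, Col18a1 (log2 0.53, adjusted p = 0.0343), and 0 in descending aorta, with the collagen IV genes uncalled in both. Of 16 other tested basement membrane genes, P3h2, a prolyl hydroxylase that modifies collagen IV, was the 1 called higher in ascending (log2 0.47, adjusted p = 0.0458) and the 1 in descending aorta (log2 0.57, adjusted p = 0.0164). Of 28 tested focal adhesion genes, 1 was higher in each region, Actn4 in ascending (log2 0.52, adjusted p = 0.0146) and Tns3 in descending aorta (log2 0.55, adjusted p = 0.0219). None of the 15 other laminin receptors was called by genotype.

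By region, the same 16 basement membrane genes had 3 higher and 3 lower in C1041G/+ mice and 4 higher and 4 lower in WT mice. Of all genes, 6.41% were called higher and 3.51% lower in C1041G/+ mice, and 7.82% and 3.31% in WT mice. Among the called genes, the large matrix proteins Hmcn1 and Hmcn2 ran in opposite directions. Hmcn1 averaged 8.41 ± 2.71 CPM in C1041G/+ ascending and 2.41 ± 0.904 CPM in C1041G/+ descending aorta, and 17.2 ± 6.07 CPM in WT ascending and 1.197 ± 0.107 CPM in WT descending aorta. Hmcn2 averaged 4.64 ± 1.15 CPM in C1041G/+ ascending and 36.1 ± 8.94 CPM in C1041G/+ descending aorta, and 8.38 ± 2.77 CPM in WT ascending and 35.5 ± 7.96 CPM in WT descending aorta (SD, n = 4 each). Smoc1, a calcium-binding basement membrane protein, was lower in ascending aorta of C1041G/+ (log2 -0.69, adjusted p = 4.47e-05) and WT mice (log2 -0.84, adjusted p = 3.92e-06). Sdc3, a cell surface heparan sulfate proteoglycan, was the 1 of 15 other laminin receptors called, higher in ascending aorta of C1041G/+ (log2 1.60, adjusted p = 9.36e-06) and WT mice (log2 1.66, adjusted p = 5.16e-06). Integrin ligands had 5 higher and 3 lower in C1041G/+ and 3 higher and 6 lower in WT ascending aorta, and focal adhesion genes had 3 and 5 higher with 0 lower in each. No basement membrane collagen was called by region, and no gene of these 5 lists by AGT-ASO or by the interaction.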

How the data were processed

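The authors deposited 1 file of raw read counts per gene for each library. The files were checked to hold whole numbers. The submitters' processing notes list fastp, STAR 2.6.1d and the build mm10. The counting tool, its strand setting and its annotation were not given in the sources used here, and GENCODE M21 of that build supplied gene names, coordinates and exon lengths. It named 99.93% of 54532 identifiers. By that annotation further members, among them Itgb4, Itgav, Lama2, Lama3 and Nid1, also share exon bases with genes on the other strand.

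Counts were tested with the edgeR 4.0.16 quasi-likelihood F test (limma 3.58.1, R 4.3.3) after TMM scaling and the filterByExpr filter, two-sided, with Benjamini-Hochberg adjustment over all genes tested and a threshold of 0.05. The 16 untreated libraries were fitted together (15645 genes, 12 residual degrees of freedom, biological coefficient of variation 15.9%) and the 10 treated libraries apart (14981 genes, 8 degrees of freedom, 17.1%). The main fits had no term for library numbers, so libraries that share a number were treated there as independent. The 6 comparisons were C1041G/+ against WT by region, ascending against descending by genotype, their interaction, and AGT-ASO against control ASO. The scripts were tested on simulated data. Depth was 17171652 to 28554356 counts per library, so a member with under about 20 counts is measured coarsely, and no molecular identifiers limit amplification error. No 2 libraries of the same group were duplicates.

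After removal of group means, the 8 ascending and descending pairs that share a number had correlations of 0.204 to 0.367 across genes, against a mean of -0.041 for other pairs, and 6 of 8 correlated best with their own number. The numbers were taken to pair the samples and entered alternative fits as a replicate block, random for genotype (correlation 0.268, limma voom) and fixed for region and the interaction. Other alternatives were RLE size factors, no count filter, a filter at 1 CPM, the 2 compared groups alone, all 26 libraries in 1 fit, DESeq2 1.42.0 and each library left out.

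Of the members, 1 is not reported here by name or in the figures, though the counts of members include it. The others are named, with values in every library for those called and for up to 4 highly expressed members of a role group, and up to 4 called genes of a related list per comparison. Itga10, Itga11, Itgb2, Itga6 and Lamb1 in uncalled comparisons were chosen after their values were seen. The members and lists were chosen with earlier results of these data known. Promoter windows are from RefSeq (GRCm38.p6).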

Additional observations from a re-analysis of the deposited data

Results flagged for a closer look

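Within each group of 4 or 5 libraries, 228 pairs of member and group were examined for 1 library set far from the rest, and 10 (4.4%) were flagged, where chance flags about 1 in 20. Of these, 3 concerned Itgae, the E-cadherin receptor chain, which has few counts. Its highest library was C1041G/+ ascending library 2 at 2.18 CPM, above 1.09 to 1.14 CPM in the others, and this library also had the highest thymus marker sum of its group. WT descending library 3 had 0.712 CPM of Itgae, above 0.117 to 0.211 CPM, and control ASO library 13 had 1.59 CPM, above 0.706 to 0.894 CPM.

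For other integrin chains, Itgax in C1041G/+ descending library 8 was low at 1.61 CPM, below 2.14 to 2.24 CPM in the others. Itga3 was high in C1041G/+ descending library 4 at 275.9 CPM, above 237 to 239 CPM. Itga7 was low in C1041G/+ ascending library 6 at 186.5 CPM, below 204 to 206 CPM. Itgb5 was low in C1041G/+ descending library 6 at 658.0 CPM, below 795.0 to 803 CPM, and the regional call of Itgb5 was lost without that library. Itga1 was high in AGT-ASO library 20 at 169.2 CPM, above 141 to 149 CPM.

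Among basement membrane genes, Lamb2 was low in WT ascending library 3 at 571.5 CPM, below 738 to 766 CPM in the others. Nid1 was low in C1041G/+ ascending library 4 at 154.3 CPM, below 172 to 175 CPM.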

How the results depend on the processing

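The 26 called member values were refitted in 405 alternatives, of which 358 kept the call, 47 lost it and 0 reversed. The ascending genotype count of 1 became 0 without a count filter and 3 with DESeq2, and ran from 0 to 1 with each library left out. Over all genes the 342 calls became 325 and 774, and ran from 163 to 347. The descending genotype count of 1 became 0 in the fit of the 2 groups alone and 0 with the random replicate block, and stayed at 1 with each library left out. Among all genes the 189 calls became 162 and 191, and ran from 128 to 170. The region count in C1041G/+ mice, 14, ran from 8 to 13 with each library left out, while the 1552 calls over all genes ran from 1247 to 1425. The AGT-ASO count of 0 became 1 without a count filter and 1 with DESeq2, where the 10 calls over all genes became 147 and 263. With the fixed replicate block the region count was 17 in place of 14 in C1041G/+ mice and 13 in place of 10 in WT mice, where 4 members in place of 1 were called lower. The block ended no member call other than that of Itgax by genotype. Of 3 alternatives chosen after seeing the data, 1 changed a total: without both libraries of C1041G/+ number 2 the ascending genotype count was 0 and the C1041G/+ region count 9. Calls over all genes fell there too, to 161 in place of 342 and to 1058 in place of 1552. Without the ascending libraries richest in heart muscle markers the region totals were the same, but C1041G/+ mice had 10 higher and 4 lower (Itgb7 lost, Lama4 gained as lower) and WT mice 10 higher and 0 lower (Lama3 lost, Lamc1 gained as higher). For the lost calls the cause was not tested.

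Groups of 4 and 5 libraries, low counts for Itgae, Itgax and Itga2 and an unstated strand setting limit these results. Tissue markers also differed between the regions, and their part was not tested. A value that missed the threshold does not show that groups were alike.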
